A study of Schizosaccharomyces pombe with 6 samples.

Results

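The genes described here encode the protein subunits of the mitochondrial ribosome that are made from nuclear genes in the fission yeast Schizosaccharomyces pombe. They were chosen by name or annotated product: a nuclear gene was taken if its standard name was mrpl, mrps or rsm followed by digits, or if its product was a mitochondrial ribosomal protein. This gave 79 of the 6952 genes of the count table. The annotated product or the gene name placed 45 of them in the large (54S) subunit and 32 in the small (37S) subunit. For mrps26 and mrpl50 it was the name alone, since their products read only protein Mrps26 and protein Mrpl50. The other 2 were set apart. One is rsm1, which also matched by its name alone and is annotated as an RNA export factor. The other is kgd4, whose product carries the name mitochondrial ribosomal protein Ymr1 with no subunit.

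RNA was measured in 6 cultures taken on day 6 of the chronological lifespan assay, in which cells age without dividing. The aal1-pOE group was 3 cultures in which aal1, a long non-coding RNA, was made from a plasmid under the P41nmt1 promoter, which thiamine represses. The evc group was 3 cultures with the empty vector. Both groups had the 972h- leu1-32 background and grew in the minimal medium EMMG, and the labels call the replicates biological. The comparison asked which transcripts differ when aal1 is in excess in aged, non-dividing cells.

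Mitochondria keep a small genome and a ribosome of their own to translate it. That ribosome descends from a bacterial one, and its RNA is encoded in the mitochondrion, while nearly all of its proteins are translated in the cytosol and imported. It makes core subunits of the respiratory chain and of the ATP synthase, on which non-dividing cells depend once glucose is used up. The cytosolic ribosome is a separate machine with its own protein genes, and in S. pombe many of those carry the HomolD box, a promoter element that stands in for a TATA box.

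Library totals lay between 5839863 and 13164975 counts. The overexpressed RNA checked the labels: aal1 was counted 54, 141 and 58 times in aal1-pOE, against 4, 2 and 4 times in evc. Levels below are normalised counts per 1000000 (CPM), that is counts scaled to the library total times its TMM factor, which corrects for the composition of a library. Replicate 2 of aal1-pOE stood apart from the rest. Its TMM factor was 1.796, against 0.763 to 1.07 in the other libraries, and the SD of its log2 levels over 4911 protein-coding genes was 1.52, against 2.16 to 2.50. Replicate 1 of evc had a lower share of cytosolic ribosomal protein counts than the other evc libraries (6.83% against 11.3% and 11.5%). Where leaving out one of these libraries moved a printed fold change by more than 1.5 times, the value without it is also given.

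The mitochondrial and cytosolic ribosomal protein genes were unlike in their promoters. The cytosolic set was the 141 nuclear genes whose names begin with rpl, rps or rpp and a digit. Their products were not checked, and the paper's own count of ribosomal protein mRNAs is smaller. The HomolD box, searched as CAGTCACA or its complement TGTGACTG from 250 bases before to 50 bases after the annotated start of each gene, was in 0 of 45 large subunit promoters and 0 of 32 small subunit promoters. It was in 88 of 141 cytosolic ribosomal protein promoters (62.4%) and in 137 of 5111 promoters of nuclear protein-coding genes (2.68%). Where a cytosolic gene had it, the box began at a median of -51.5 from the annotated start. The letters AATTTT, or AAAATT on the other strand, were in 62.2% of large subunit, 50% of small subunit, 56.0% of cytosolic ribosomal and 65.7% of all protein-coding promoters. A match is a run of letters and not a shown binding site.

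Stretches of 60 bases around the HomolD box (in capitals) are shown to give the cytosolic pattern, from rpl1902 (chrIII:400671-400730, plus strand), rpl3002 (chrI:5095901-5095960, minus strand) and rpl2801 (chrII:3196380-3196439, plus strand), all read 5′ to 3′ from assembly ASM294v3.
rpl1902: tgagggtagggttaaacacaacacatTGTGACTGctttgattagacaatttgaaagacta
rpl3002: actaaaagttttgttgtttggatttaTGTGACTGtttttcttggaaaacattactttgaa
rpl2801: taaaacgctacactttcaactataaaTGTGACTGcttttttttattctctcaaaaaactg

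The 250 bases before the annotated start are shown for 4 mitochondrial ribosomal protein genes that recur below, with AATTTT or AAAATT in capitals. They are the pair yml6 (chrII:2980470-2980719, minus strand) and snr1 (chrII:2980752-2981001, plus strand), which face away from each other, and mrps26 (chrII:3237909-3238158, plus strand) and tam9 (chrII:2144777-2145026, plus strand), which had the smallest adjusted p in each subunit. None of these stretches held the HomolD box. The first of them overlaps the start of SPNCRNA.1568, a non-coding gene on the strand opposite to yml6, which the strand-specific counting keeps separate.
yml6: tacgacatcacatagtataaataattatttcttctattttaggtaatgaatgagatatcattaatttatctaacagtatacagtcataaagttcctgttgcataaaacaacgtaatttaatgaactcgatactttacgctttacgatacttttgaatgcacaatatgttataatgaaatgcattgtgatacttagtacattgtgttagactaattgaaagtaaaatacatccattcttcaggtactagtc
snr1: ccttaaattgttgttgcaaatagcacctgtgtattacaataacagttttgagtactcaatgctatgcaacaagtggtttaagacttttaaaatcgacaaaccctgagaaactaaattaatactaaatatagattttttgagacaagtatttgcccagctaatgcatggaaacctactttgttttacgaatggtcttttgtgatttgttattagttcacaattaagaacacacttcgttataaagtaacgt
mrps26: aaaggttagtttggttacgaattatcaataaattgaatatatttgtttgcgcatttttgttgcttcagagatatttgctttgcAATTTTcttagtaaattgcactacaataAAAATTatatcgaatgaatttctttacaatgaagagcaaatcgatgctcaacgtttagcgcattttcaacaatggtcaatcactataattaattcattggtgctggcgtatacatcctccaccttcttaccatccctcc
tam9: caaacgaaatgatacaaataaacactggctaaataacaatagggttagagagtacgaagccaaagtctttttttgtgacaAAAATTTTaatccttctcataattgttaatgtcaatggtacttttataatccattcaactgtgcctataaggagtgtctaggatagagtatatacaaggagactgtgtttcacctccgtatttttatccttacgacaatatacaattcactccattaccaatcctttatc

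The proteins also differed from the rest of the proteome at their start, where many imported proteins carry a positively charged targeting sequence. The first 30 residues had a median net charge of 4 in the large subunit, 4 in the small subunit, 4 in cytosolic ribosomal proteins and 0 over all 5111 proteins. An absence of acidic residues set the mitochondrial proteins apart from the cytosolic ones. In the large subunit 53.3% of proteins had none there, and in the small subunit 28.1%, against 14.2% of cytosolic ribosomal proteins and 10.2% of all proteins. These are descriptions of the reference annotation and not of the libraries. Median protein length was 161 residues in the large subunit and 219 in the small subunit.

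No mitochondrial ribosomal protein gene passed the test in aal1-pOE against evc, and the members lay on both sides of zero. Of 76 tested, 56 had a positive and 20 a negative log2 fold change (edgeR quasi-likelihood test, with calls made where the adjusted p reached 0.05 or less). The count was 0 called higher, where 1.36% of the 5823 genes tested were called higher, and 0 called lower, where 4.64% were called lower. At an unadjusted p under 0.05 there were 13 members higher and 4 lower (17.1% and 5.26% of members), against 14.6% and 12.5% of all genes. In 19 members every aal1-pOE library lay above every evc library and in 7 every one lay below (25% and 9.21%), against 18.4% and 19.1% of all genes. On the same counts limma-voom called 0 members in either direction, against 0.326% of all genes called higher and 4.04% lower. DESeq2 called 6 members higher (mrps26, mrpl40, snr1, mrps18, mrpl37 and mrx14) and 1 lower (tam9). These were 7.89% and 1.32% of members, against 6.75% and 8.79% of all genes. mrx14, which encodes bL34m, was named after its values were seen.

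The median log2 fold change was 0.25 in the large subunit (44 tested) and 0.35 in the small subunit (32 tested), against 0.085 over all genes tested. The interquartile range of the members ran from -0.048 to 0.56. The standard error (SE) of a member had a median of 0.33 and reached 0.82, so that a shift of this size in one gene was not detectable with 3 libraries a group. The small subunit median was 0.14 without aal1-pOE replicate 2, and the large subunit median was 0.36 without evc replicate 1. The cytosolic ribosomal proteins differed in both respects: 128 of 141 were called lower and 0 higher, with a median of -2.24.

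**Figure D1:**
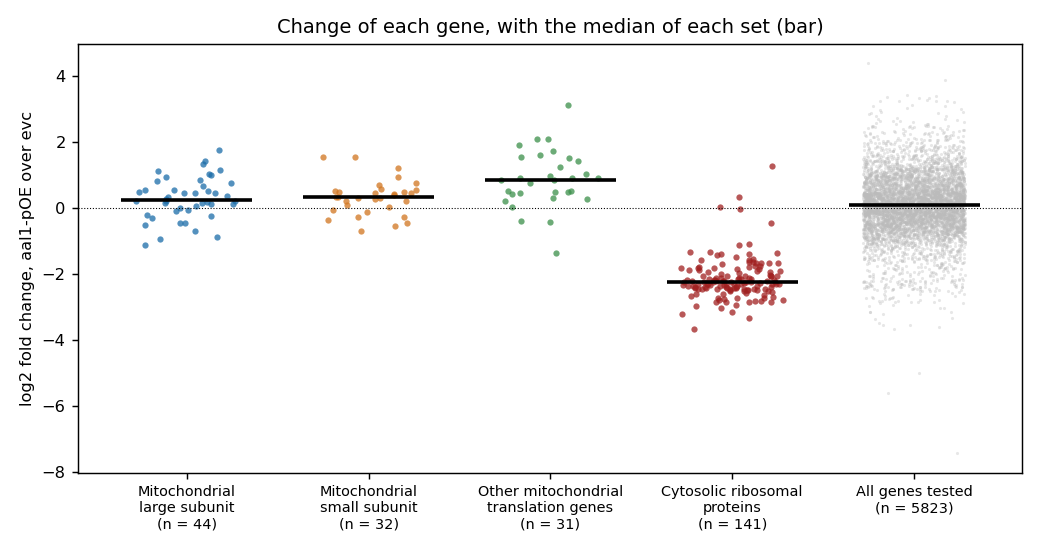
Log2 fold change of aal1-pOE over evc (vertical axis) for each tested gene of 5 sets, with the median of each set as a bar. The mitochondrial subunits have medians of 0.25 and 0.35 and straddle zero, while the cytosolic ribosomal proteins have a median of -2.24.

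The summed counts, before any scaling between libraries, also set the mitochondrial and the cytosolic genes apart. Large subunit genes took 0.135%, 0.203% and 0.142% of all counts in aal1-pOE, against 0.121%, 0.105% and 0.108% in evc. Small subunit genes took 0.121%, 0.206% and 0.115% in aal1-pOE, against 0.0933%, 0.0751% and 0.0752% in evc. In both subunits the groups did not overlap, and the largest value was that of aal1-pOE replicate 2. Cytosolic ribosomal protein genes took 3.16%, 3.83% and 2.78% of counts in aal1-pOE, against 6.83%, 11.3% and 11.5% in evc. Counts of cytosolic over mitochondrial ribosomal protein genes stood at 10.8 ± 1.496 in aal1-pOE, against 52.2 ± 17.6 in evc (n = 3 each, SD). The higher shares were not particular to the mitochondrial ribosome. Scaled by library totals alone, the median log2 fold change was 0.98 in the large and 1.12 in the small subunit, against 0.80 over all genes tested. A share of counts is relative to all other RNA in the library, and neither RNA per cell nor the number of living cells was measured in these files.

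**Figure D2:**
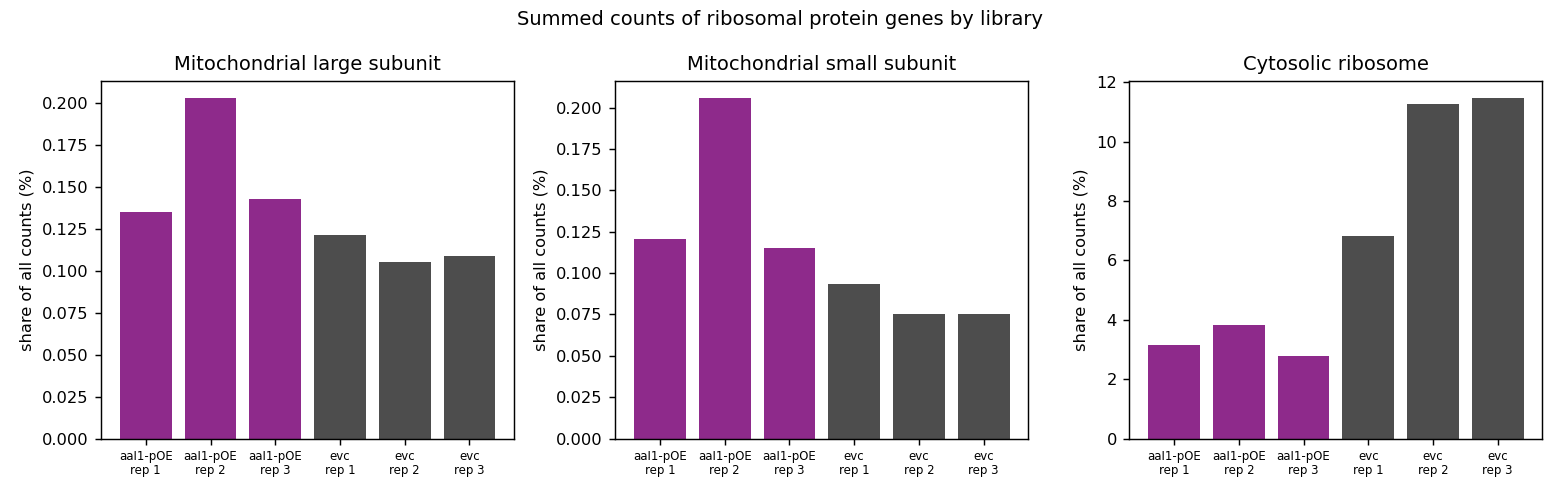
Summed counts of the large subunit, small subunit and cytosolic ribosomal protein genes as a percentage of all counts in each of the 6 libraries. Each panel has its own vertical scale from 0; the mitochondrial shares are higher in the 3 aal1-pOE libraries and the cytosolic share is lower.

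The ratio of summed counts between the subunits also differed. Counts of the large over the small subunit were 1.12, 0.986 and 1.23 in aal1-pOE, against 1.30, 1.40 and 1.44 in evc, so that the groups did not overlap. The means were 1.11 ± 0.125 in aal1-pOE, against 1.38 ± 0.0750 in evc (n = 3 each, SD). The sums weigh each gene by its counts, and yml6 and mrpl1, the large subunit genes with the highest levels per length, had negative log2 fold changes. yml6 had 1343, 1426 and 1190 counts in aal1-pOE, against 1360, 1142 and 1253 in evc. mrpl1 had 1030, 1415 and 983, against 1056, 782 and 1164. The whole large subunit had 11879, 26697 and 8728, against 8449, 6149 and 6990. How far the ratio rests on these genes was not tested. Without aal1-pOE replicate 2 the median log2 fold change was 0.18 in the large and 0.14 in the small subunit.

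The gene with the most negative fold change was tam9, which encodes bL31m of the large subunit (chromosome II, 2145027 to 2145299). Its level was 13.9, 12.9 and 14.03 CPM in aal1-pOE, against 21.3, 30.7 and 36.2 CPM in evc. The groups were apart, and the aal1-pOE libraries were close together. The log2 fold change was -1.11 ± 0.30 SE with an adjusted p of 0.0588 (edgeR), and over 16 alternatives it ran from -1.30 to -0.40, with adjusted p from 0.00117 to 0.471. It was called lower in 5 of them, among them the fit without aal1-pOE replicate 2 (log2 fold change -1.05).

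Next came the 2 members with the highest levels per kb of coding sequence in evc. yml6 encodes uL4m, a protein of the family that lines the exit tunnel of the ribosome. It stood at 142, 60.4 and 188 CPM in aal1-pOE, against 229, 256 and 252 CPM in evc, with a log2 fold change of -0.92 ± 0.37 SE and an adjusted p of 0.149 (edgeR). mrpl1, which encodes uL1m, the protein of the mobile stalk beside the exit of tRNA, stood at 109, 59.9 and 155 CPM in aal1-pOE, against 178, 175 and 234 CPM in evc. The log2 fold change was -0.86 ± 0.33 SE with an adjusted p of 0.140 (edgeR). In both genes the groups were apart and aal1-pOE replicate 2 was the lowest library. Without that library the log2 fold changes were -0.56 and -0.56.

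mrpl3, which encodes mL44, had overlapping groups, at 47.4, 35.1 and 82.8 CPM in aal1-pOE, against 72.4, 97.4 and 98.2 CPM in evc. Its log2 fold change of -0.70 was -0.45 without aal1-pOE replicate 2. Of the other large subunit genes with high levels per kb of coding sequence, mrpl15 (mL57) and mrpl10 (uL15m) overlapped between the groups as well. Their log2 fold changes of -0.45 ± 0.38 and -0.23 ± 0.23 (SE) turned positive with library totals alone, at 0.091 and 0.42. They were -0.068 and -0.069 without aal1-pOE replicate 2, and mrpl15 was -0.30 and mrpl10 -0.072 once evc replicate 1 was left out.

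In the small subunit the most negative value was that of bot1, which encodes mS45 and in fission yeast is needed for mitochondrial translation and respiration. Its level was 85.9, 52.0 and 86.7 CPM in aal1-pOE, against 114, 143 and 109 CPM in evc. The groups were apart, with a log2 fold change of -0.70 ± 0.25 SE and an adjusted p of 0.12 (edgeR). mrp10 (mS37), a protein of the small twin-cysteine type, had 44.9, 23.8 and 48.2 CPM in aal1-pOE, against 57.4, 55.2 and 55.1 CPM in evc. fyv4 (mS41) had 36.2, 25.95 and 42.1 CPM in aal1-pOE, against 48.2, 48.5 and 46.9 CPM in evc. In all 3 genes each aal1-pOE library lay below each evc library, and the lowest was replicate 2. Their direction was not the same under every scaling: with library totals alone mrp10 stood at 0.078 and fyv4 at 0.18, while bot1 stood at -0.070. Without aal1-pOE replicate 2 the log2 fold changes were -0.25 for mrp10 and -0.28 for fyv4, against -0.53 and -0.47 with all libraries.

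The other small subunit genes with high levels per kb of coding sequence were close between the groups. Levels per kb also count reads from outside the coding sequence. The annotated lengths of mrps16, rsm19 and rsm27 were 1424, 1285 and 2509 bases for 291, 282 and 282 bases of coding sequence. For fyv4 the length was 3841 for 342 bases. Mean evc levels were 43.6 (mrps16), 44.6 (rsm19), 47.6 (rsm27) and 47.9 CPM (fyv4), against 122 CPM for bot1. mrps16, which encodes a member of the S16 family, had 43.1, 48.6 and 42.6 CPM in aal1-pOE, against 42.3, 44.6 and 43.9 CPM in evc. rsm19 (uS19m) had 42.5, 37.3 and 43.3 CPM in aal1-pOE, against 41.2, 44.4 and 48.3 CPM in evc. Their log2 fold changes were 0.038 ± 0.20 and -0.12 ± 0.21 (SE). rsm27 (mS33) had a log2 fold change of -0.36 ± 0.26 (SE) with overlapping groups. With library totals alone rsm19 turned to 0.57 and rsm27 to 0.28. Leaving out aal1-pOE replicate 2 gave -0.0087 for mrps16, -0.039 for rsm19 and -0.17 for rsm27, and leaving out evc replicate 1 gave 0.018 for mrps16 and -0.19 for rsm27.

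The smallest adjusted p of all members belonged to mrps26, which only its name placed in the small subunit. Its level was 53.99, 83.5 and 53.0 CPM in aal1-pOE, against 39.6, 21.8 and 20.1 CPM in evc. Each aal1-pOE library was above each evc library, and evc replicate 1 was the highest of its group. The log2 fold change was 1.22 ± 0.32 SE with an adjusted p of 0.0571 (edgeR), and it ran from 0.98 to 2.0 over 16 alternatives, with adjusted p from 0.000154 to 0.243. The gene was called higher in 7 alternatives, more than any other member. Its annotated length was 3670 bases for 657 bases of coding sequence, so its level per kb of coding sequence also counts reads from the rest of the transcript.

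A further 2 small subunit genes had larger fold changes from low levels. snr1 encodes mS47, which in budding yeast belongs to the acyl-CoA hydrolase family, and it had the lowest evc level per kb of coding sequence of all members tested. It stood at 14.7, 23.4 and 12.8 CPM in aal1-pOE, against 7.93, 4.04 and 5.43 CPM in evc, with a log2 fold change of 1.54 ± 0.43 SE and an adjusted p of 0.0646 (edgeR). mrps18, annotated as a putative mitochondrial ribosomal protein, stood at 7.61, 17.2 and 13.7 CPM in aal1-pOE, against 4.72, 3.37 and 5.03 CPM in evc, with 1.55 ± 0.46 SE and an adjusted p of 0.0746 (edgeR). The groups were apart in both. cox24 (mS38) and rsm24 (mS35) had log2 fold changes of 0.94 ± 0.51 and 0.77 ± 0.48 (SE), and their groups overlapped. Both were 0.41 without aal1-pOE replicate 2, and rsm24 was 1.17 once evc replicate 1 was left out.

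In the large subunit the most positive values were those of mrpl37, mrpl40, mrp49 and mrpl6. mrpl37 encodes mL54 and had 7.61, 18.7 and 9.77 CPM in aal1-pOE, against 6.07, 1.35 and 3.22 CPM in evc, a log2 fold change of 1.75 ± 0.61 SE with an adjusted p of 0.110 (edgeR). mrpl40 encodes uL24m, of the family that sits beside the tunnel exit, and had 17.6, 28.2 and 20.02 CPM in aal1-pOE, against 12.5, 6.96 and 5.03 CPM in evc, a log2 fold change of 1.42 ± 0.42 SE with an adjusted p of 0.0708 (edgeR). mrp49 (mL61) had 4.54, 14.01 and 5.36 CPM in aal1-pOE, against 3.04, 2.92 and 3.62 CPM in evc. These 3 had groups that did not overlap, and aal1-pOE replicate 2 was the highest library in each. Without that library the log2 fold changes were 1.26 for mrpl37, 1.202 for mrpl40 and 0.64 for mrp49.

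mrpl6 (uL6m) had 72, 405 and 43 counts in aal1-pOE, against 61, 2 and 17 counts in evc, and its SE of 0.82 was the largest of all members. Its log2 fold change of 1.14 was 0.57 without aal1-pOE replicate 2 and 2.43 with evc replicate 1 left out. mrpl50, at 6.66 ± 3.08 CPM in aal1-pOE, against 3.95 ± 1.29 CPM in evc (n = 3 each, SD), was among the lowest in level per kb of coding sequence. Its log2 fold change of 0.76 was 0.34 without aal1-pOE replicate 2. new15, which encodes bL35m, had 0 counts in every library and was not tested; 3 counts, the limit that a count of 0 allows, correspond to 0.228 to 0.514 CPM of the library totals.

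**Figure D3:**
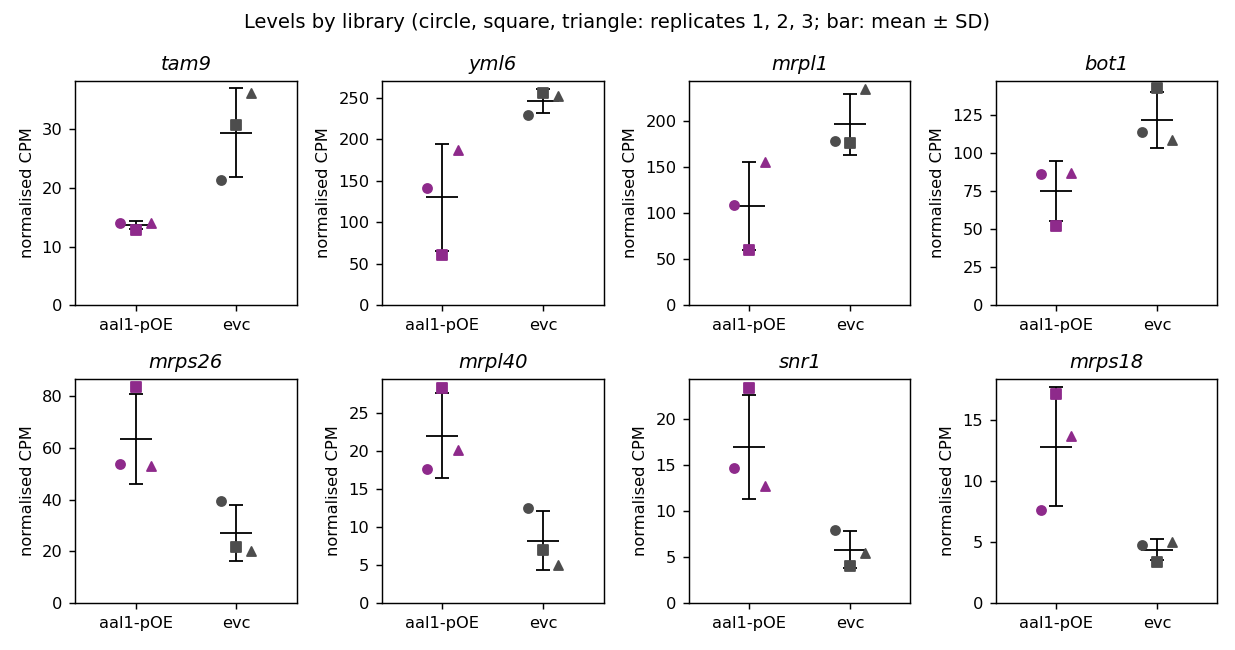
Normalised CPM of 8 members in each library, with the mean and SD of each group as bars; every vertical axis starts at 0. The upper row holds the genes lower in all 3 aal1-pOE libraries and the lower row those higher in all 3, and replicate 2 (square) is the lowest or highest aal1-pOE library in every panel.

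The members ran from -1.11 (tam9) to 1.75 (mrpl37). The 2 genes set apart gave -0.62 ± 0.27 (kgd4) and -0.021 ± 0.31 (rsm1) (SE), which stood at 0.036 and 0.58 with library totals alone. rsm1 was 0.29 without aal1-pOE replicate 2 and -0.082 with evc replicate 1 left out.

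**Figure D4:**
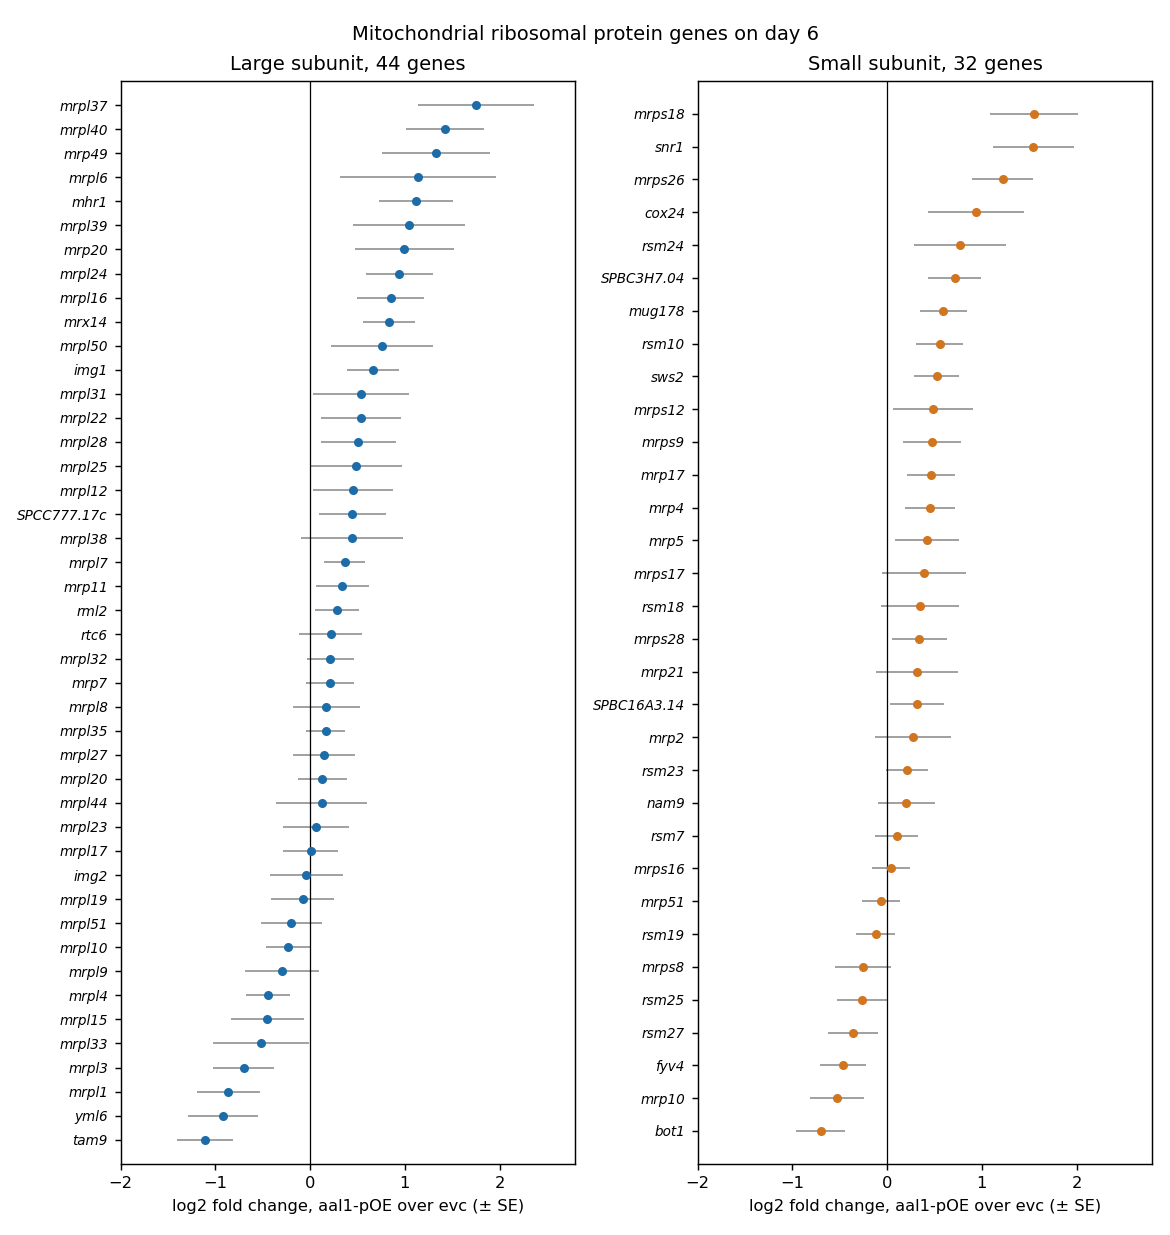
Log2 fold change ± SE of aal1-pOE over evc for all 76 tested members, in order of size within each subunit. 32 of 44 large subunit genes and 24 of 32 small subunit genes have positive values, and no gene passed the test.

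Levels varied among members far more than they differed between groups. In evc they ran from 4.50 CPM per kb of coding sequence (snr1) to 313 CPM per kb (yml6). The members with high levels had the lower fold changes, and this was not particular to them: Spearman's rho between level per kb and log2 fold change was -0.61 over 76 members and -0.66 over 4911 protein-coding genes. It is given as a description, since both measures share the same libraries. In the 19 members with the highest levels the median log2 fold change was -0.23, against -0.22 for 1021 other protein-coding genes in that range of levels. In the next 19 members by level it was 0.314, against 0.053 for 751 others. The 19 after these had 0.318, against 0.325 for 733 others. In the 19 with the lowest levels it was 0.77, against 0.58 for 895 others. Without aal1-pOE replicate 2 rho was -0.32 over the members and -0.34 over protein-coding genes. The log2 levels of that library were the least spread over the members, with an SD of 0.717, against 1.14 and 1.21 in the other aal1-pOE libraries and 1.28 to 1.503 in evc. Its part in the relation beyond this was not tested.

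**Figure D5:**
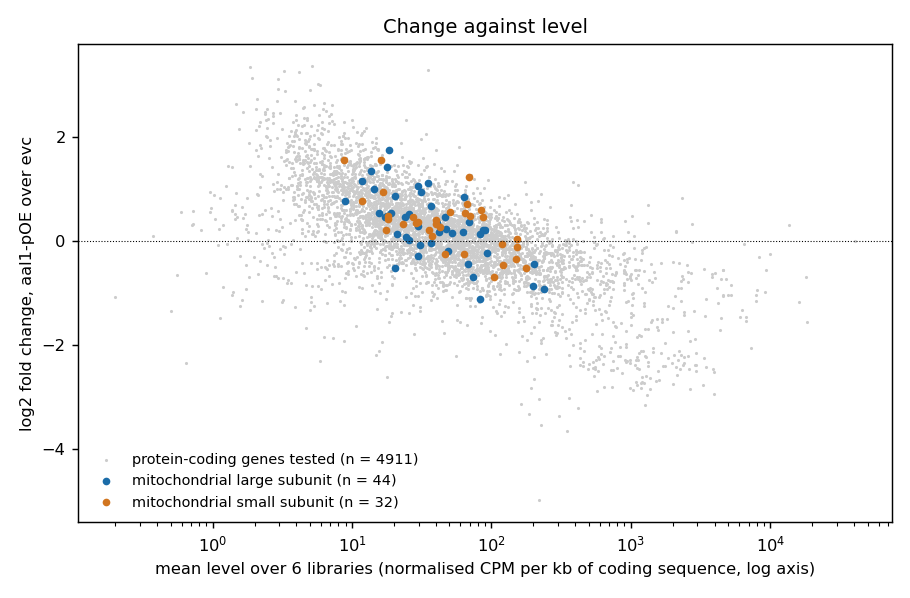
Mean level over the 6 libraries (normalised CPM per kb of coding sequence, log axis) against the log2 fold change of aal1-pOE over evc. Members of both subunits lie within the cloud of 4911 protein-coding genes, which slopes down with a Spearman's rho of -0.66.

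Of the members, 2 pairs were neighbours on a chromosome, each transcribed away from the other. mrps12 and mrpl28, 718 bases apart, had log2 fold changes of 0.48 ± 0.42 and 0.51 ± 0.40 (SE), and mrps12 was 0.23 without aal1-pOE replicate 2. yml6 and snr1, 532 bases apart, were the highest and the lowest member by evc level per kb of coding sequence, and their fold changes were of opposite sign, at -0.92 and 1.54. The difference within the pair was not tested.

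Other genes of mitochondrial translation were also without a call. The list held translation factors, tRNA-charging enzymes, pentatricopeptide repeat (PPR) proteins, which bind mitochondrial RNA, and factors for assembly and membrane insertion. Of 31 tested, 0 were called in either direction by edgeR, where 1.36% of all genes were called higher and 4.64% lower. Among the 31, 28 had a positive and 3 a negative log2 fold change, where 54.0% of all genes were positive. The median was 0.86, against 0.085 over all genes. Without replicate 2 of aal1-pOE, 21 of 28 tested were positive and the median was 0.31, against 0.023 over all genes. At an unadjusted p under 0.05 there were 9 higher and 1 lower (29.0% and 3.23%), against 14.6% and 12.5% of all genes. Many genes of the list had low levels, such as dia4 (2.07) and gta2 (1.40 CPM per kb of coding sequence in evc). Over 4911 protein-coding genes low levels went with higher fold changes (Spearman's rho -0.66). The list was not compared with other genes of like level. DESeq2 called 4 genes of the list higher and 1 lower (12.9% and 3.23%, against 6.75% and 8.79% of all genes), the lower one being ppr5. limma-voom called 0 of the list, against 0.326% of all genes called higher and 4.04% lower.

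The level of ppr5 was 1711, 953 and 1533 CPM in aal1-pOE, against 2918, 4132 and 3822 CPM in evc. It took the most counts of the list, its groups were apart, and its log2 fold change was -1.37 ± 0.40 SE with an adjusted p of 0.0718 (edgeR). ppr2 went the other way, at 2.33, 7.92 and 3.15 CPM in aal1-pOE, against 0.675, 0 and 0.805 CPM in evc. oxa101, which encodes an Oxa1-type insertase of the inner membrane, had 8.45, 23.2 and 9.62 CPM in aal1-pOE, against 2.70, 5.16 and 4.63 CPM in evc, a log2 fold change of 1.74 ± 0.53 SE with an adjusted p of 0.0803 (edgeR). mba1, a membrane receptor for the mitochondrial ribosome, had 59.2, 72.9 and 57.8 CPM in aal1-pOE, against 50.4, 31.9 and 22.1 CPM in evc. In these 4 genes the groups did not overlap. Without aal1-pOE replicate 2 the log2 fold change of oxa101 was 1.14.

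Among the translation factors, rrf1, which recycles ribosomes after termination, had 6.76, 9.53 and 7.72 CPM in aal1-pOE, against 4.72, 4.49 and 2.42 CPM in evc. mti3, an initiation factor, had 1.06, 11.3 and 3.63 CPM in aal1-pOE, against 1.86, 2.02 and 0.402 CPM in evc, so that its log2 fold change of 1.92 ± 0.91 (SE) leaned on replicate 2 and was 0.66 without it. In rrf1 the groups were apart and in mti3 they overlapped. Of the tRNA-charging genes, dia4, a seryl-tRNA synthetase, had 5.39, 14.4 and 6.31 CPM in aal1-pOE, against 2.87, 2.24 and 3.82 CPM in evc. gta2, of the enzyme that makes glutaminyl-tRNA by amidation, had 2.33, 23.0 and 2.84 CPM in aal1-pOE, against 2.19, 2.24 and 2.21 CPM in evc. The groups were apart in both. The log2 fold change of dia4, 1.55 with all libraries, was 0.98 without aal1-pOE replicate 2, and that of gta2, 2.10 ± 0.88 (SE), was 0.22.

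With aal1-pOE replicate 2 and evc replicate 1 left out together, edgeR called 17 of 76 members higher and 5 lower (22.4% and 6.58%), against 19.4% and 20.2% of the 5604 genes then tested. The share of members called higher was near that of all genes. Those called lower were tam9, yml6, mrpl1, mrpl9 and bot1. Those with the smallest adjusted p on the higher side were mrps26 (log2 fold change 1.36), mrps9 (0.98) and mug178 (0.81), of which mrps9 and mug178, like mrpl9, were picked after their values were seen.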

How the data were processed

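RNA was measured in 6 cultures, 3 aal1-pOE and 3 evc. The authors depleted rRNA (Ribo-Zero) and prepared paired-end, strand-specific libraries with molecular indices. Per the submitters' processing notes reads were checked with FastQC 0.11.2, aligned with STAR 2.6.1a and counted with HTSeq 0.12.3, and edgeR 3.46.0 and limma 3.46.0 were used. The deposited file held read counts per gene by strand, in whole numbers, for each library and without normalisation. The genome build and a step that collapses duplicates were not given in the sources used here. HTSeq by default leaves out reads with several alignments, which affects near-identical cytosolic ribosomal protein paralogs.

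Names, products, coordinates and sequences came from RefSeq for assembly ASM294v3, which matched 6805 of 6952 identifiers; the promoter windows use its annotated gene starts. On the same strand 9 of 79 members overlapped another gene, none by more than 8.65% of their length.

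The 5823 genes that exceeded 1 CPM in 3 or more libraries were tested with edgeR 4.0.16 in R 4.3.3, with TMM factors, a quasi-likelihood fit on strain and Benjamini-Hochberg adjustment over all genes. The SE was derived from the fold change and its F statistic. The script was tested on simulated data. P-values test the difference between the groups against the variation between 3 cultures a group, with variance estimates that share information across genes.

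The members and lists were chosen with earlier results of these data known. Named genes were, in each subunit, the 4 highest and 4 lowest fold changes and the 5 highest and 3 lowest levels per kb of coding sequence in evc, the untested member, and the 2 companion genes with the smallest p in each list. Companion genes were listed by name, because product names gave too few. Alternatives were DESeq2 size factors, library totals alone, TMM without cytosolic ribosomal protein genes, filters of 1 count and of 10 CPM, the likelihood ratio test of edgeR, limma-voom (limma 3.58.1), DESeq2 1.42.0, a replicate block, and leaving out libraries.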

Additional observations from a re-analysis of the deposited data

How the results depend on the processing

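Of 463 refits of 30 named genes under 16 alternatives, 405 kept their direction and side of the threshold, 48 kept the direction and passed it, and 10 changed sign. With library totals alone, which moved the median of all genes to 0.80, against 0.085, mrpl10 stood at 0.42, mrpl15 at 0.091, mrp10 at 0.078, fyv4 at 0.18, rsm27 at 0.28 and rsm19 at 0.57, and the medians were 0.98 in the large and 1.12 in the small subunit. mrps16 ran from -0.0087 (without aal1-pOE replicate 2) to 0.075 with 1 library left out. With aal1-pOE replicate 2 and evc replicate 1 both left out, mrpl10 stood at 0.075, mrpl15 at 0.069 and mrps16 at -0.045, and 17 members were called higher and 5 lower (4 large, 1 small), which is 22.4% and 6.58%, against 19.4% and 20.2% of all genes.

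The count of members called higher was 2 with library totals alone, 1 with a filter of 10 CPM, 5 with the likelihood ratio test and 6 with DESeq2 (2.63%, 1.75%, 6.58% and 7.89% of members, against 8.88%, 2.48%, 6.82% and 6.75% of all genes). The likelihood ratio test and DESeq2 each called 1 lower, in the large subunit (1.32%, against 8.11% and 8.79% of all genes). Leaving out 1 library at a time gave 0 to 3 higher and 0 to 1 lower (0 to 1 in the large subunit), a large subunit median of 0.18 to 0.36 and a small subunit median of 0.14 to 0.48, while of all genes 0.0173% to 4.42% were called higher and 1.40% to 9.09% lower. The cause of these moves was not tested.

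Deviations of same-numbered libraries correlated at 0.033, 0.0097 and 0.0065, and those of differently numbered libraries at -0.026 to 0.0082. The labels do not say whether same-numbered cultures were grown together, and correlations this small do not settle it. A fit with a replicate block called 2 members higher and 1 lower (in the large subunit), which is 2.63% and 1.32%, against 4.24% and 6.58% of all genes. The fit without the block called 1.36% and 4.64% of all genes. The SE of mrpl6, 0.82, was the largest among the members.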
